A study of Equus caballus with 16 samples.

Results

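A set of 100 genes was examined in cultured equine tenocytes, the resident cells of tendon. These genes were lower with a hairpin against SCX in each of 4 fetal lines, while their mean over 4 adult lines stayed close to 0. They were taken from 21689 genes by a rule based on the measured values. Counts per 1000000 counts of the library (CPM) were formed, and the log2 ratio of the shSCX over the non-target (NT) library was computed for each line on the log2(CPM + 1) scale. Genes with a mean of at least 2 CPM in the fetal NT libraries and a mean adult ratio between -0.2 and 0.2 were kept, and the 100 most abundant genes of the NT libraries were left out. Of the 7291 genes that met these filters, 872 (12%) had ratios below 0 in all 4 fetal lines, and the 100 with the lowest value of the highest fetal ratio were taken. The fetal and adult ratios therefore chose the genes, and their size is given as a description without a test.

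Scleraxis, the product of SCX, is a basic helix-loop-helix transcription factor that binds E-box sequences. It marks tendon progenitors in the embryo and is known as an activator of tendon matrix genes, collagen type I among them. A short hairpin RNA is processed into a small RNA that directs the cell's own machinery to cleave the matching transcript, and a scrambled sequence serves as the control. In a culture of one cell type a lower share of counts can reflect less RNA per cell or fewer cells of a kind that makes it, and bulk libraries cannot tell these apart.

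Adult lines came from horses of 2 to 10 years (TB171012, TB180412, TB130911 and S), and fetal lines were named by gestation day (271d, 316d, 319d and 320d). From each line a stable culture with a plasmid-borne NT hairpin and one with the shSCX hairpin were sequenced once, at passages 5 to 8, which gave 4 groups of 4 libraries. Both libraries of a line had the same passage. One shSCX sequence, designed against human SCX, and one NT sequence were used, so an effect of SCX loss and an effect of that sequence cannot be told apart. The sources used here do not say whether the cultures were clones or pools. The title of the series poses the question of a different role of Scleraxis in tenocytes of different age. Totals ran from 20865437 to 26157162 counts in adult and from 17628158 to 23148025 in fetal libraries. The tables name genes by horse Ensembl identifier only, and 0 identifiers matched the gene table used here. The level of SCX, tendon markers, the functions of the genes and their sequences were therefore not analysed here, and 2 of the 100 genes are named by identifier.

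The adult values of the 100 genes leaned below 0. Of the 100, 91 had a mean adult ratio below 0, against 55.6% of the 7291 filtered genes, and their median mean ratio was -0.13 in adult and -0.40 in fetal lines. These medians correspond to 91.6% and 75.9% of the NT level. The adult values lay toward the lower limit of the window: 66 of the 100 were at -0.1 or below, against 24.6% of the filtered genes, and 14 were at -0.18 or below. The highest mean adult ratio was 0.15. The working description of the set as falling in fetal lines only does not match these adult values.

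When the adult window was set aside, 423 genes met the remaining filters and were at least as low in all 4 fetal lines as the last of the 100. Of these, 323 (76.4%) had a mean adult ratio below -0.2, the 100 chosen genes (23.6%) were within the window, and 0 were above 0.2. Among all 10797 genes that met the remaining filters, 18.7% were below, 67.5% within and 13.8% above the window. The genes below the window were also lower in fetal lines, with a median mean ratio of -0.60 there and -0.41 in adult lines. With trimmed-mean (TMM) scaling in place of total counts the split was 312, 100 and 1. These 423 genes thus mostly had a mean adult ratio below 0 too, and the 100 were those among them with the smaller adult ratios. Genes with smaller differences in fetal lines were not split in this way.

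**Figure D1:**
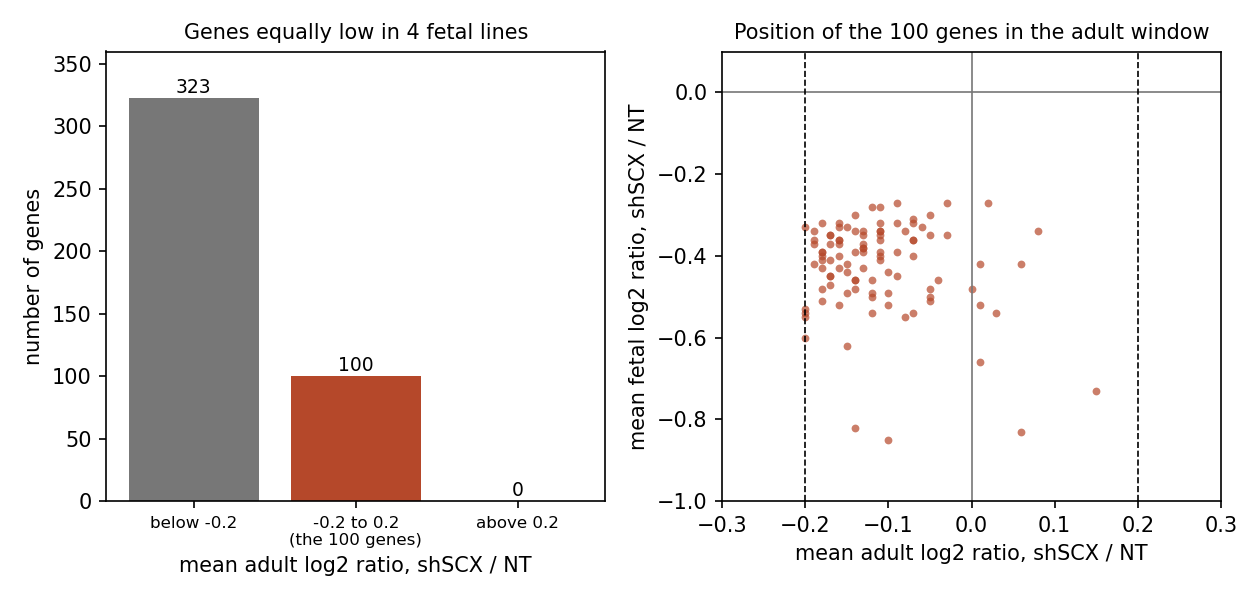
Left, number of genes whose ratios in all 4 fetal lines were at least as low as those of the 100 genes, by their mean adult log2 ratio of shSCX over NT. Right, each point is 1 of the 100 genes, with the mean adult ratio on the x axis and the mean fetal ratio on the y axis, and dashed lines mark the adult window of -0.2 to 0.2. On the left 323 genes lie below the window and 0 above it, and on the right 91 of the 100 points lie below 0 on the x axis.

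In fetal lines the size of the difference was modest. The rule takes genes low in all 4 fetal lines, so it favours ratios that are even between these lines. The median SD of a ratio between fetal lines was 0.118 for the 100 genes and 0.188 for the filtered genes. The median ratio of the 100 genes was -0.33 (271d), -0.45 (316d), -0.34 (319d) and -0.40 (320d), while the median of the filtered genes was 0.10, 0.09, 0.09 and 0.04 in the same lines. The line medians averaged -0.38 ± 0.06 (SD, n = 4). The lowest ratio of a gene was found in 316d for 46 of the 100, in 320d for 24, and in 271d and 319d for 15 each. Line 316d held the lowest ratio for 23% of the filtered genes.

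Few of the 100 genes changed by a large factor. Of the 400 ratios of a gene in a fetal line, 4 were at least 2-fold lower, each in a different gene, and the lowest was -1.66 in 316d. A mean fetal ratio of -0.5 or below was seen for 19 genes, and 0 reached -1. The last 3 genes taken had highest fetal ratios of -0.214, -0.213 and -0.209, and the first 3 left out had -0.208, -0.207 and -0.207, so the set has no natural border. Counting error is small beside most of these values: the median standard error of a ratio from counts alone was 0.0691, the highest was 0.475, and 79 of the 100 genes were lower by more than 1.96 such errors (a 95% interval) in all 4 fetal lines. For the other 21 at least 1 fetal line was within counting error. The rule held every fetal ratio of the 100 genes at -0.209 or below, so the 79 follows largely from the choice and is a description. The standard errors cover counting only.

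In adult lines the genes did not behave alike from line to line. The median ratio was -0.19 in TB171012, -0.19 in TB130911 and -0.14 in S, against 0.04, 0.00 and -0.02 for the filtered genes. In TB180412 the median of the 100 genes was 0.03 and that of the filtered genes -0.07. This opposite direction held for genes that the line itself helped to choose. Genes chosen without TB180412 had a median of -0.13 there, against -0.10 for the genes that met the same filters. Below 0 were 87 of the 100 in TB171012, 80 in TB130911, 74 in S and 42 in TB180412. The filtered genes had 42.8%, 49.6%, 53.8% and 60.8% below 0 in these lines. TB180412 held the highest adult ratio for 55 of the 100 genes, against 20.4% of the filtered genes. It was also the adult line with the lowest passage, 5, where the others were at 7 or 8, and the part of passage in this was not tested.

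A mean near 0 was reached in the adult lines in part by ratios of opposite sign. The median SD of a ratio between adult lines was 0.21 for the 100 genes and 0.2 for the filtered genes. By fetal NT level it was 0.32 against 0.26 at 2 to 10 CPM and 0.21 against 0.19 at 10 to 100 CPM. At 100 CPM or more it was 0.17 against 0.16, so the SD of the 100 genes was the larger at each level. All 4 adult ratios were within -0.2 to 0.2 for 7 of the 100, against 17.3% of the filtered genes. In 40 at least 1 adult ratio was at or below -0.2 together with 1 at or above 0.2. Of the 100, 93 had an adult ratio of -0.2 or less in some line. The shares of filtered genes for the 40 and the 93 were not computed, so both counts only describe the set. In 69 genes 3 or 4 adult lines were below 0, where 35% of the filtered genes were, and in 20 genes all 4 were, where 6.13% were. The adult mean is limited by the rule, so a gene with a high value in one adult line had to be low in others. In the 58 genes above 0 in TB180412 the median ratio was 0.23 in that line, -0.28 in TB171012, -0.23 in TB130911 and -0.14 in S. In the other 42 it was -0.14, -0.11 and -0.14, and -0.15 in S. Without TB180412 the mean adult ratio was below 0 in 98 of the 100, against 91 with all 4 adult lines. Where TB180412 held the highest adult ratio, leaving it out lowers the mean by construction. The share of filtered genes was not computed for the 98 either, and nothing is read from it.

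**Figure D2:**
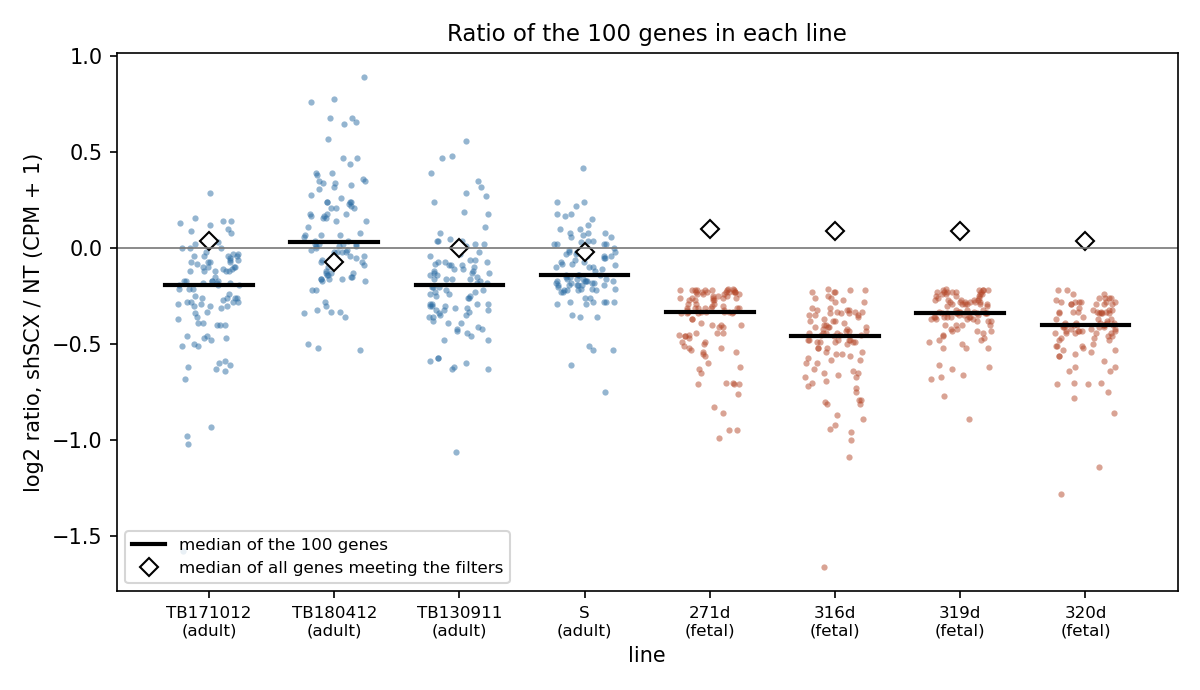
Log2 ratio of shSCX over NT on the CPM + 1 scale for the 100 genes in 8 lines. Points are genes, bars are their medians, and diamonds are the medians of the 7291 filtered genes. The fetal points lie below -0.2 by choice, and the adult medians lie below 0 in 3 of 4 lines, with TB180412 at 0.03.

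Because every line took part in the choice, the choice was repeated with each line left out, and the genes so chosen were read in the line that had no part in it. With 271d left out, 77 of 100 chosen genes were below 0 in that line, with a median ratio of -0.18, where 34% of the genes that met the same filters were below 0. With 316d left out 88 were below 0 (median -0.40, background 40.4%), with 319d 88 (median -0.24, background 38.1%) and with 320d 93 (median -0.38, background 44.5%). The fetal pattern was thus present in each fetal line that did not choose the genes. It was smaller than in the full choice in 271d (-0.18 against -0.33) and 319d (-0.24 against -0.34). In 316d (-0.40 against -0.45) and 320d (-0.38 against -0.40) it was slightly smaller. In the full choice each line had helped to choose its own genes, which favours lower values there. Of the genes chosen without 271d, 45 were among the 100, and without 319d 57, 316d 76 and 320d 82.

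The same was done for adult lines, where the line left out was free of the window. In TB171012, 94 of the 100 genes chosen without it were below 0 (median -0.34, background 44%), in TB130911 91 (median -0.33, background 51.7%) and in S 82 (median -0.17, background 54.4%). Read in this way, the ratios in TB171012 and TB130911 were about as low as those in the fetal lines. In TB180412, 66 were below 0 with a median of -0.13, close to the background of 63% and -0.10. The medians in TB171012 and TB130911 were thus outside the window of -0.2 to 0.2 that the other adult lines had met, and those in S and TB180412 inside it. No test was applied to these counts, since genes of one line are not replicates.

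**Figure D3:**
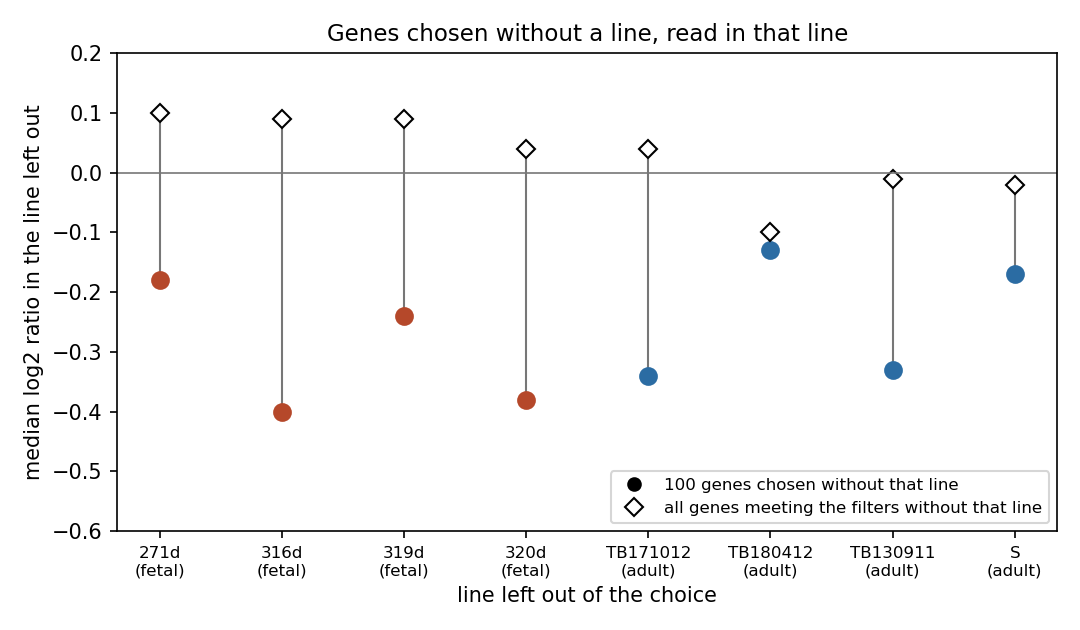
Median log2 ratio of shSCX over NT in the line left out of the choice, for the 100 genes chosen without that line (filled circles, fetal in red and adult in blue) and for all genes that met the filters without it (diamonds). The circles lie at -0.18 to -0.40 in the 4 fetal lines and at -0.13 to -0.34 in the 4 adult lines, and in TB180412 circle and diamond nearly coincide.

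Counts were also fitted over all genes with edgeR's quasi-likelihood test, with the line as a block and Benjamini-Hochberg adjustment. All 100 genes passed the filter on low counts in each fit. In fetal lines 98 of the 100 were lower at adjusted p under 0.05, where 8.04% of 12418 tested genes were called lower. The rule used this contrast, so nothing is read from that count. The median fetal log2 fold change of the 100 was -0.52, against 0.01 for all genes tested. It is further from 0 than the ratio of total counts because TMM scaling moved the filtered genes by -0.09 to -0.15 in fetal lines. Leaving out 320d gave 5 calls among the 100, where 96 of 12471 tested genes were called lower. Leaving out 319d gave 29, where 286 of 12434 were, and the fit without the block gave 0, where 3 of 12418 were. Calls thus fell over all tested genes, from 998 called lower with all lines and the block.

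In adult lines 0 of the 100 were called by edgeR in either direction, with 0.663% of 12513 genes called lower and 1.93% higher. At unadjusted p under 0.05 there was 1 (lower), where 8.38% of the tested genes were lower at that level. DESeq2's Wald test called 0, where 264 of 12513 tested genes were called lower and 449 higher. Under an unadjusted p of 0.05 with DESeq2 were 2 of the 100, both lower, where 1010 of the 12513 were lower. The window of the rule keeps the adult changes small, so this count too is a description. The median adult log2 fold change was -0.13, against -0.03 for all genes tested, and it was -0.18 without TB180412. In that fit 12 of the 100 were lower at unadjusted p under 0.05, where 890 of 12465 tested genes were. At adjusted p under 0.05 there were 0 of the 100, where 65 of the 12465 were called lower and 172 higher.

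The difference between the fetal and the adult effect was fitted as an interaction in all 16 libraries. None of the 100 passed in edgeR (0 of 12888 genes called in all, 0%, lowest adjusted p = 0.307). At unadjusted p under 0.05 were 77 of the 100, each with the more negative effect in fetal lines, where 5.82% of the tested genes were at that level in that direction. The genes were chosen by this difference, and nothing is read from the 77. With DESeq2 1 of the 100 passed, where 0.0233% of the tested genes were called lower. The median difference was -0.40 on the log2 scale. In 24 of the 100 all fetal ratios were below all adult ratios, where 1.18% of the filtered genes had this order, which the rule favours. The larger effect in fetal lines was thus not established for any of the 100 with edgeR.

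The 100 genes took similar shares of the NT libraries at both stages. They held 1.18% ± 0.186 of counts in adult NT, 1.09% ± 0.132 in adult shSCX, 1.22% ± 0.189 in fetal NT and 0.92% ± 0.127 in fetal shSCX libraries (SD, n = 4 each). Within lines the share changed with shSCX by -21.8% (271d), -28.5% (316d), -21.7% (319d) and -25.3% (320d). In adult lines it changed by -15.7% in TB171012, -8.21% in TB130911, -7.52% in S and 3.04% in TB180412. The range between lines was wider than the differences within them. The NT share ran from 0.955% in 271d to 1.4% in 320d among fetal lines, and the shSCX share of 320d (1.05%) was above the NT share of 271d. In 8 of the 100 genes all fetal shSCX levels were below all fetal NT levels, where 0.549% of the filtered genes had this order and the rule used the contrast.

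**Figure D4:**
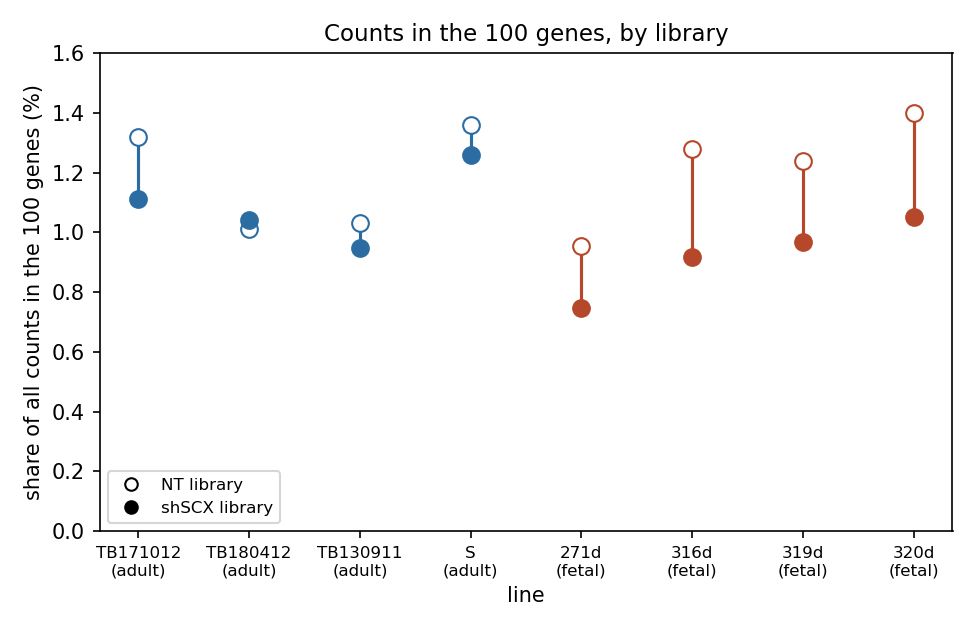
Share of all counts taken by the 100 genes in each library, in percent, with the NT library (open) and the shSCX library (filled) of a line joined. The share is lower with shSCX in 7 of 8 lines, TB180412 being the exception, and NT shares span 0.955% to 1.4%.

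The comparison of fetal with adult NT tenocytes called hardly any gene, and its counts for the 100 genes were near the background. In the edgeR test of fetal against adult NT libraries 0 of the 100 were called in either direction, where 0.00807% of 12384 genes were called lower and 0% higher in fetal lines. At unadjusted p under 0.05 there were 3 of the 100 (background 2.81%), and limma voom and DESeq2 called 0. The mean fetal NT level was above the mean adult NT level for 72 of the 100, with a median difference of 0.10 on the log2(CPM + 1) scale, against 38.8% and -0.05 for the filtered genes. The fetal NT libraries enter the ratios of the rule, so this difference is a description. In fetal lines left out of the choice, the NT level of the chosen genes minus the adult NT mean had a median of -0.27 (271d), 0.12 (316d), 0.08 (319d) and 0.26 (320d), against -0.04, -0.01, -0.00 and -0.13 for the filtered genes. It was above the filtered genes in 3 of 4 lines and below them in 271d. Levels of all 4 fetal lines were above all adult levels for 2 of the 100 (background 0.357%) and below for 1 (background 0.466%).

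With shSCX the fetal levels lay below those of adult lines. The mean fetal shSCX level was below the mean adult NT level in 96 of the 100, with a median difference of -0.28. It was below the mean adult shSCX level in 91, with a median of -0.17. Of the filtered genes 57.8% were above the mean adult NT level (median difference 0.04). Above the mean adult shSCX level were 60.8% of them (median difference 0.05). No overlap, with fetal shSCX lower, was found for 13 of the 100 against adult NT (background 1.52%) and for 4 against adult shSCX (background 0.59%). The fetal shSCX libraries entered the choice, so these values describe the set.

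A feature that the rule used only through the mean adult ratio was the order of the adult lines. In NT libraries the level was highest in TB171012 for 44 and in S for 41 of the 100 genes, against 28.5% and 14.1% of the filtered genes. It was lowest in TB180412 for 59 and in S for 2, against 20.1% and 37.7%. Both TB171012 and S were above both TB180412 and TB130911 for 60 of the 100, where 21.1% of the filtered genes had this order, and the reverse order was seen for 3, where 43.8% had it. This comparison of line pairs was chosen after the values were seen.

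The order of the adult lines also appeared in their shSCX libraries, for 47 of the 100 (background 22.9%). The median NT difference between these pairs of lines was 0.35 for the 100 genes and -0.14 for the filtered genes on the log2(CPM + 1) scale. With TMM scaling the NT count was 71, where 36.8% of the filtered genes had the order, and the medians were 0.55 and 0.05. The order went with abundance among the filtered genes, since it was seen for 38.3% of those at 100 CPM or more and for 11.4% of those at 2 to 10 CPM. Within these levels it was seen for 20 of 28 and 7 of 18 of the chosen genes. Among fetal NT libraries, which did enter the choice directly, the level was highest in 320d for 50 of the 100 (16.9% of the filtered genes) and lowest in 271d for 80 (36.8%). The NT libraries of all lines enter the ratios of the rule, so these counts describe the set.

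The 100 genes were more abundant than the genes they were taken from. Their median fetal NT level was 49.5 CPM, against 25.2 CPM for the filtered genes, and ranged from 2.65 to 967 CPM. At 100 CPM or more were 28 of the 100, where 12.6% of the filtered genes lay, 54 were at 10 to 100 CPM (63%) and 18 at 2 to 10 CPM (24.4%). The rule took 3.05%, 1.18% and 1.01% of the filtered genes at these levels. The median fetal ratio of the 100 genes hardly varied with level, at -0.40, -0.40 and -0.41, where the filtered genes had -0.03, 0.07 and 0.15. The rule held the fetal ratios of the 100 genes at -0.209 or below at every level. Their median adult ratio was -0.14, -0.13 and -0.08. Over all levels the spread between adult NT lines was like that of the filtered genes, with a median SD of 0.294 on the log2(CPM + 1) scale against 0.287. By level it was 0.254 against 0.245 at 100 CPM or more and 0.307 against 0.272 at 10 to 100 CPM. At 2 to 10 CPM it was 0.369 against 0.382. Counts were whole within 0.01 in all 16 libraries for 93 of the 100 and for 92.5% of the filtered genes. The lowest count of any of the 100 genes in a library was 13.

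ENSECAG00000024636 had the lowest value of the highest fetal ratio. In fetal lines its level was 45.3 CPM with NT and 26.3 with shSCX in 271d, 24.5 and 12.3 in 316d, 43.4 and 25.1 in 319d, and 31.2 and 16.7 in 320d. Each fetal line lost close to the same part of its NT level, and the ranges of the NT and shSCX groups overlapped only between 24.5 and 26.3 CPM. In adult lines it was 253 CPM with NT and 310 with shSCX in TB171012, 20 and 32 in TB180412, 22.9 and 21.2 in TB130911, and 9.55 and 5.89 in S. Adult lines thus differed among themselves far more than by hairpin, with TB171012 high in both of its libraries, and the hairpin difference had opposite signs in TB171012 and S. The log2 ratio averaged -0.83 ± 0.09 in fetal and 0.06 ± 0.54 in adult lines (SD, n = 4 each). The fitted log2 fold change was -0.97 (SE 0.09, edgeR adjusted p = 0.00271) in fetal and 0.08 (SE 0.19, edgeR adjusted p = 0.864) in adult lines, where it was -0.12 without TB180412. The fitted difference between the stages was -1.06 (SE 0.23, edgeR adjusted p = 0.307), and this was the gene of the set called with DESeq2 (adjusted p = 0.0147). As the rule used these contrasts, the values are descriptive.

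ENSECAG00000007397 was the most abundant of the 100 genes in fetal NT libraries. Its fetal level was 691 CPM with NT and 591 with shSCX in 271d, 1109 and 772 in 316d, 965 and 783 in 319d, and 1102 and 842 in 320d. Its adult level was 1129 and 978 CPM in TB171012, 677 and 619 in TB180412, 740 and 676 in TB130911, and 1094 and 970 in S. The shSCX library was the lower one in all 8 lines, and at both stages the ranges of the NT and shSCX groups overlapped. The adult ratios were the more even, at -0.16 ± 0.04, and the fetal ratios averaged -0.36 ± 0.13 (SD, n = 4 each), with the fetal range of -0.52 to -0.22 just below the adult range of -0.21 to -0.13. The fitted log2 fold change was -0.46 (SE 0.09, edgeR adjusted p = 0.0185) in fetal lines, and it was not called without 319d (edgeR adjusted p = 0.0713) or 320d (edgeR adjusted p = 0.0894). In adult lines it was -0.16 (SE 0.08, edgeR adjusted p = 0.366) and the difference between stages was -0.31 (SE 0.11, edgeR adjusted p = 0.307). This gene met the rule for a small adult mean while it was lower with shSCX in 4 of 4 adult lines.

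**Figure D5:**
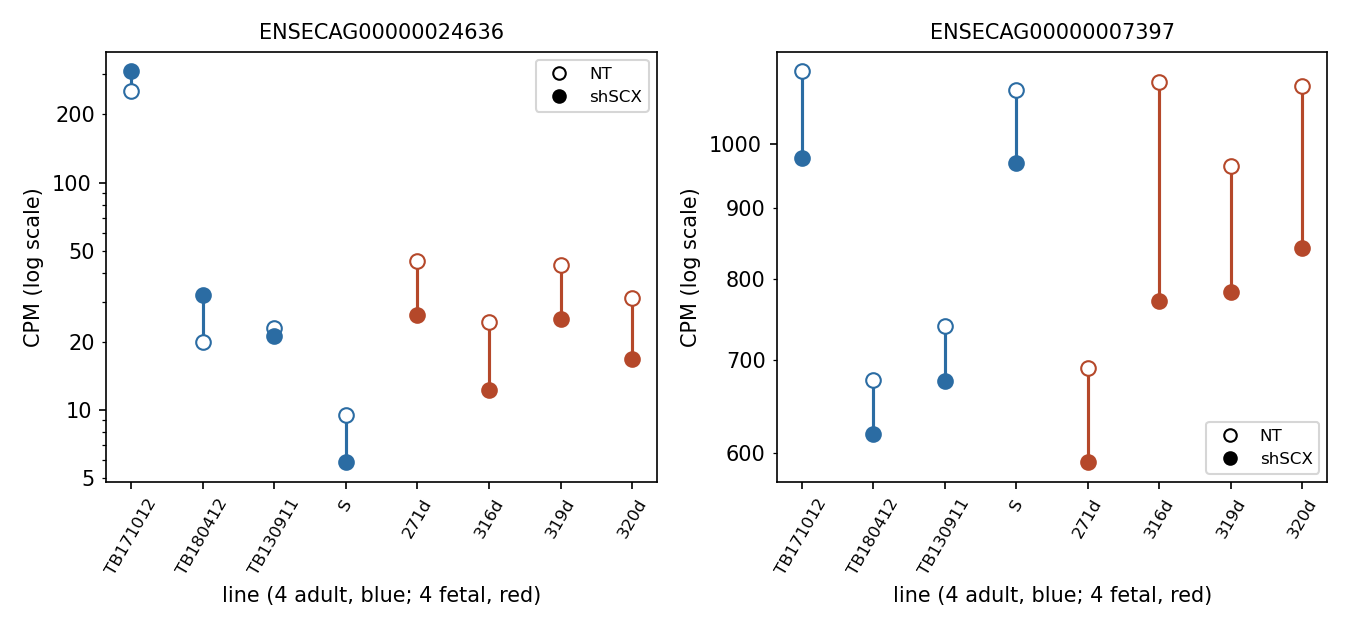
Level of ENSECAG00000024636 (left) and ENSECAG00000007397 (right) in CPM on a log axis, with the NT (open) and shSCX (filled) library of each line joined, for 4 adult lines (blue) and 4 fetal lines (red). The left gene is lower with shSCX in 4 of 4 fetal and 2 of 4 adult lines, and the right gene in 8 of 8 lines.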

How the data were processed

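Messenger RNA libraries of 16 equine tenocyte cultures were analysed from 2 tables of estimated counts per gene that the authors deposited, not scaled and not pooled. Per the submitters' processing notes, the tools were FastQC, Salmon and R 3.5.2. The sources used here do not give the build, the annotation or the summing to genes. Between 94.6% and 95.8% of values were whole within 0.01. A pair of adult columns with the prefix TB and no number was assigned to TB171012, since the other adult titles were taken. The lines are called independent, but the labels do not tie each to its own animal, so p-values measure the spread between these cultures.

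Estimated counts were rounded and tested with edgeR 4.0.16 under R 4.3.3 (filterByExpr, TMM factors, quasi-likelihood test, p adjusted over all genes by Benjamini-Hochberg), after tests on simulated data. The line was a block: both libraries of a pair came from one line, and their deviations from group means correlated at r = 0.411 to 0.832. Fetal against adult NT had no block. The SE is the log2 fold change over the square root of F. Alternatives were DESeq2 1.42.0, RLE factors, limma 3.58.1 voom (NT libraries only), no filter, no block, each line left out, and other settings of the rule. Both named genes follow a rule for tables without symbols: the gene with the lowest value of the highest fetal ratio and the most abundant in fetal NT libraries. The 15 pathway lists and the marker genes of cell types prepared for this work could not be used without symbols. The genes and lists were chosen with earlier results of these data known.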

Additional observations from a re-analysis of the deposited data

Results flagged for a closer look

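Single libraries far from the other 3 of their group were sought in 18 groups of 4 values (levels and ratios of the named genes, and shares and median ratios of the 100 genes) by Dixon's ratio at a 95% limit, which chance exceeds in about 1 in 20 groups. There were 2. Both were ENSECAG00000024636 in adult line TB171012, which was highest at 253 CPM among adult NT libraries and at 310 CPM among adult shSCX libraries.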

How the results depend on the processing

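Membership depended on the settings of the rule. With an adult window of 0.1, 33 of the 100 genes were chosen again, and with 0.3 there were 46. With a line left out of the choice 45 to 85 were chosen again. TMM scaling, other pseudocounts and other CPM minimums each kept at least 78 of them. The median fetal ratio was -0.51 with TMM scaling, against -0.40, and the adult median stayed within the spread between lines under each alternative tried. The number called lower in fetal lines was 0 without the replicate block, where 3 of 12418 tested genes were called lower. In that fit 61 of the 100 were lower at unadjusted p under 0.05, where 697 of the 12418 were. With a line left out 5 to 86 of the 100 were called lower, where 96 to 1166 of all tested genes were. For the difference between stages 1 gene was called with DESeq2, and 0 under the other alternatives, the fit without the replicate block included. Of 80 alternative values of both named genes 71 kept direction and call, 4 changed sign with no call on either side, 4 were fetal calls lost and 1 was the DESeq2 call. ENSECAG00000024636 had an adult log2 fold change of -0.12 to 0.28 with a line left out (0.08 with all lines, -0.12 without TB180412). Its log2 fold change of fetal over adult NT was -1.05, but 0.17 with limma voom and -1.46 to 1.17 with a line left out (1.17 without TB171012). For ENSECAG00000007397 the latter was 0.14, and -0.02 to 0.28 with a line left out. The cause of these sign changes was not tested.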
